A study of Bos taurus with 30 samples.

Results

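Bovine endometrial epithelial and stromal cells that had received 10 ng/mL of insulin under flow for 72 hours were compared. The comparison holds 6 of the 30 libraries of the series, 3 epithelial and 3 stromal, taken from the 18 libraries of the insulin experiment by the cell type, dose and replicate number in their labels. The genes described are the members of 21 hand-written lists of growth factor, signalling and metabolism genes with 1051 entries, 923 of which were matched by symbol to a gene of the count table. Of these members 812 had enough reads to be tested, 111 fell below the count filter and 128 had no matching symbol.

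The cells were primary cultures from the uteri of cows that were not pregnant and in their early luteal phase, separated by straining and by their plating times. The epithelial cells grew in the upper chamber and a stromal-enriched population on the underside of a porous membrane in the lower chamber. Medium with 5 mM of glucose and 10 ng/mL of insulin flowed through the device for all 6 libraries, so the groups differ in cell type and chamber, and these cannot be told apart. The other groups used below are both cell types with the vehicle (acetic acid in phosphate-buffered saline) or with 1 ng/mL of insulin in the same medium, and both cell types of the separate glucose experiment at 5 mM glucose, each with 3 libraries after 72 hours. The labels speak of biological replicates but do not say which cow a number stands for. All p-values therefore measure the spread between these libraries.

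Insulin and insulin-like growth factors (IGFs) bind receptor tyrosine kinases, which recruit insulin receptor substrates and activate phosphatidylinositol 3-kinase (PI3K), AKT and mTOR. This cascade raises glucose uptake, glycogen storage and lipid synthesis and restrains FOXO transcription factors. In the endometrium, epithelium and stroma also signal to each other through secreted growth factors of the EGF, FGF, WNT, hedgehog and BMP families, and the epithelium supplies glucose, lactate, amino acids and lipids to the fluid around the early embryo.

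The epithelial libraries held 8977862, 8826470 and 9528257 counted reads and the stromal libraries 13214728, 11402593 and 10409287. Levels are given in CPM, the counted reads scaled to a common library total, in the order of replicates 1, 2 and 3. They are not adjusted for gene length and are compared only within a gene. A count of 0 allows up to 3 reads, or 0.227 to 0.340 CPM, for counting error only. The keratin genes KRT19, KRT7 and KRT8, which form the intermediate filaments of epithelial cells, checked the epithelial label. KRT19 had 2029, 1721 and 1975 CPM in epithelial and 74.9, 0.175 and 6.82 CPM in stromal cells, KRT7 had 1428, 1452 and 1388 against 52.7, 0.351 and 4.80 CPM, and KRT8 had 940.2, 1192 and 756 against 33.4, 0.263 and 2.69 CPM. The mesenchymal genes SPARC, VIM and MMP2 checked the stromal label. SPARC, a matrix glycoprotein, had 141, 79.9 and 351 CPM in epithelial and 5135, 7252 and 7046 CPM in stromal cells. VIM, the mesenchymal intermediate filament, had 611, 629 and 578 against 4036, 4047 and 4024 CPM, and MMP2, a gelatinase, had 168, 58.5 and 396 against 2684, 4232 and 3873 CPM. All 6 markers lay on the side that their label gives, without overlap, although the 3 keratins missed the threshold without replicate 3 (adjusted p = 0.0706 to 0.0879).

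Marker genes of the other cell type were unevenly spread over the libraries. Of 32 epithelial marker genes, the median stromal level was 3.73%, 0% and 0.429% of the epithelial level in replicates 1, 2 and 3, with 17 of the 32 at 0 reads in stromal replicate 2. Summed, they reached 11792.5 to 12793 CPM in epithelial libraries but 52.7 to 578 CPM in stromal libraries. Stromal markers had a median of 5.79%, 2.58% and 12.7% of the stromal level in epithelial replicates 1, 2 and 3. Their summed levels there were 30263, 32041 and 24868 CPM, lowest in replicate 3, against 78527 to 115410 CPM in stromal libraries. Of the 32 stromal markers, 30 were called higher in stromal cells and 1 higher in epithelial cells, and 1 was not called. Smooth muscle and pericyte markers summed to 172 to 620.5 CPM in epithelial libraries against 4549 to 6704 CPM in stromal libraries, endothelial markers to 30.0 to 110 CPM and 7.88 to 10.2 CPM, and leukocyte markers to 4.23 to 8.72 CPM and 7.64 to 9.32 CPM. Whether these marker reads came from other cells or from the cultured cells themselves was not tested. Nor was their part in the differences below. A lower level in such bulk libraries can mean fewer cells that express a gene or less RNA in each of them, which cannot be told apart.

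Differences are log2 fold changes of epithelial over stromal cells, with positive values for a higher epithelial level. The call rule asked for an adjusted p below 0.05 (quasi-likelihood test of edgeR, Benjamini-Hochberg correction over the 13274 genes tested) and a log2 fold change past 0.1 on either side. It called 7030 of 12795 protein-coding genes (54.9%), 3495 (27.3%) with the higher level in epithelial cells and 3535 (27.6%) with the higher level in stromal cells. Beyond 1 on the log2 scale, 4181 genes (32.7%) were called, and the CPM ranges of the groups did not overlap for 8483 genes (66.3%). Of the 812 list members tested, 542 (66.7%) were called, 281 higher in epithelial cells and 261 in stromal cells, and 401 (49.4%) beyond 1. Both shares were above those of all genes, but the lists were chosen with earlier results of these data known, so this is a description only. The 419 signalling members gave 125 calls on the epithelial side and 172 on the stromal side, with a median of -0.16. The 393 metabolism members gave 156 on the epithelial side and 89 on the stromal side, with a median of 0.21, where the median of all protein-coding genes was -0.013. Leaving out 1 replicate number, which leaves 2 pairs, lowered the calls to between 4815 and 5960.

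**Figure D1:**
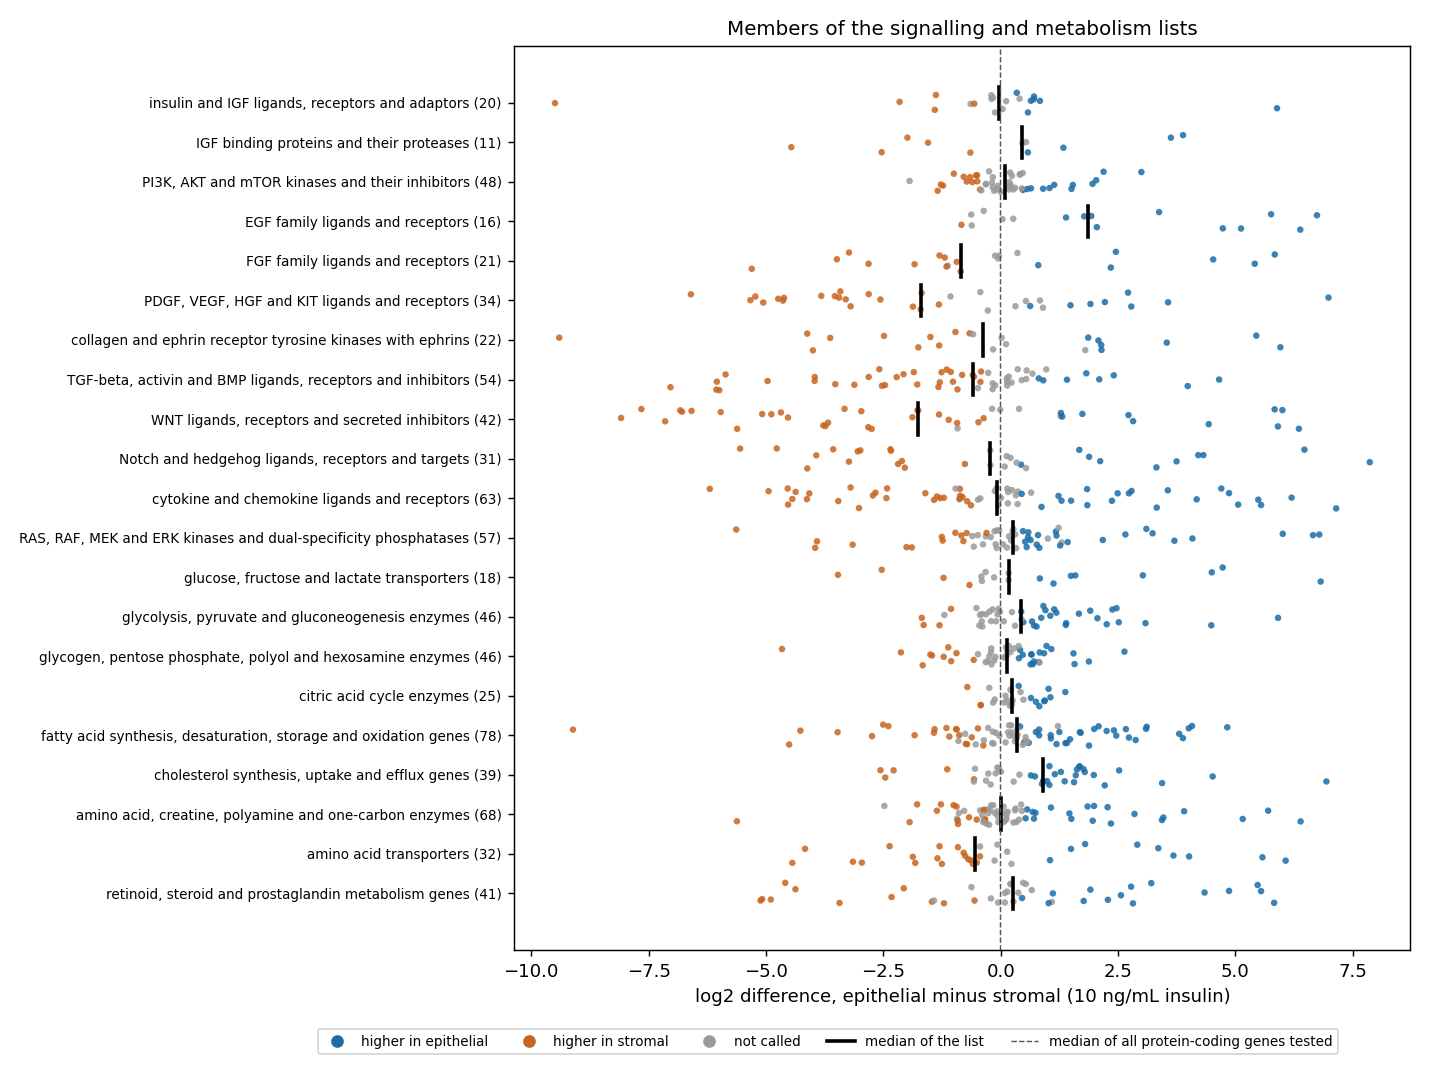
Log2 difference between epithelial and stromal cells at 10 ng/mL insulin (horizontal axis) for each tested member of the 21 lists (rows, number tested in parentheses), coloured by call, with the list median as a black bar. WNT ligands, receptors and inhibitors had the lowest median (-1.77) and EGF family ligands and receptors the highest (1.85).

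The receptors of insulin and of the IGFs differed little between the cell types. The insulin receptor gene INSR (ENSBTAG00000012687) had 46.6, 32.7 and 49.01 CPM in epithelial and 27.02, 23.3 and 28.5 CPM in stromal cells. The groups did not overlap, and the log2 difference was 0.58 (standard error 0.129, adjusted p = 0.0182). That call was lost without replicate 1 (adjusted p = 0.0542) and without replicate 3 (adjusted p = 0.0885). IGF1R (ENSBTAG00000021527), the receptor of both IGFs, had 200.5, 160.1 and 199.8 against 211, 193 and 191 CPM, with overlapping ranges and a log2 difference of -0.20 (standard error 0.121, adjusted p = 0.223). The insulin receptor substrate genes, which dock PI3K to these receptors, did not pass the test. IRS1 had 35.4, 38.3 and 49.96 against 52.4, 36.8 and 42.3 CPM (-0.20, adjusted p = 0.317), and IRS2 had 6.79, 5.78 and 9.55 against 6.13, 5.70 and 6.82 CPM (0.12, adjusted p = 0.627).

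The ligands stood apart. IGF2 (ENSBTAG00000013066), a growth factor that acts through IGF1R, had 0.334, 0 and 0.105 CPM in epithelial and 127, 38.5 and 149.8 CPM in stromal cells. These are 3, 0 and 1 reads against 1675, 439 and 1559, and the fitted log2 difference of -9.49 (standard error 0.354, adjusted p = 0.00124) rests on 4 epithelial reads in all. IGF1 (ENSBTAG00000011082) fell below the count filter, with 0, 0 and 1 reads in epithelial and 6, 5 and 6 in stromal libraries, so no difference is given. The adaptor GRB7, which binds activated receptor kinases, had 29.6, 17.2 and 13.3 against 0.378, 0.263 and 0.288 CPM (5.89, standard error 0.265, adjusted p = 0.00124). Members outside the rule for named genes, most of them given by symbol and log2 difference alone, were picked after their values were seen. Of the 20 tested ligands, receptors and adaptors, 7 were higher in epithelial cells (4 without replicate 1 and 3 without replicate 3) and 5 higher in stromal cells. The share called, 60%, was near the 54.9% of all genes, and the median was -0.04. The 5 higher in stromal cells were IGF2, SH2B3, SHC1, DOK1 and GRB10.

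IGF binding proteins carry IGFs outside the cell. The list of these proteins and their proteases, which also holds STC1 and STC2, differed more than the receptors. Of its 11 members tested, 4 were higher in epithelial cells and 5 in stromal cells (2 higher in stromal cells without replicate 1). The share called was 81.8%, where all genes gave 54.9%. IGFBP3 (ENSBTAG00000003994), the main carrier of IGFs in blood, had 418, 1222 and 705 CPM in epithelial and 65.4, 59.3 and 40.1 CPM in stromal cells. Its level was 12.3-fold higher in epithelial cells (log2 3.63, standard error 0.364, adjusted p = 0.00241). IGFBP7, a secreted protein that binds IGFs weakly, lay on the other side with 29.5, 12.7 and 40.7 against 516, 573 and 469 CPM (-4.46, standard error 0.453, adjusted p = 0.00245). IGFBP6, which prefers IGF2, had 165, 269 and 206 against 258, 330.2 and 329 CPM. Its ranges overlapped, it was lower in epithelial cells in 3 of 3 pairs (-0.65, adjusted p = 0.0149), and the call was lost without replicate 1 (adjusted p = 0.0526) or replicate 3 (adjusted p = 0.0834). IGFBP5 had 47.5, 40.9 and 53.6 against 20.2, 71.2 and 19.1 CPM and did not pass the test (0.54, adjusted p = 0.414). Stromal replicate 2 held the highest of these 6 values, and without replicate 2 IGFBP5 was called at 1.27 (adjusted p = 0.00835). The other members of the list called were IGFBP2, STC1 and STC2, higher in epithelial cells, and IGFBP4, PAPPA and HTRA1, higher in stromal cells.

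Downstream, genes of PI3K catalytic subunits lay on opposite sides. PIK3CB, which encodes the beta isoform, had 86.99, 71.6 and 64.4 CPM in epithelial and 12.2, 6.93 and 7.40 CPM in stromal cells (2.997, standard error 0.128, adjusted p = 0.00124). PIK3CA, the alpha isoform, had 83.7, 74.3 and 76.5 against 161, 188 and 205 CPM (-1.34, standard error 0.171, adjusted p = 0.00399). The regulatory subunit gene PIK3R1 was also lower in epithelial cells, with 33.6, 29.9 and 28.4 against 66.7, 52.01 and 52.6 CPM (-0.998, standard error 0.0958, adjusted p = 0.00223). None of these 3 genes overlapped between the groups. FOXO1, a transcription factor held back by AKT, had 34.6, 30.8 and 42.4 against 28.6, 25.7 and 26.03 CPM, and its difference of 0.31 did not pass the test (adjusted p = 0.0895). Of 48 kinases and inhibitors, 12 were higher in each cell type (50.0% called, where all genes gave 54.9%), with a median of 0.09, and those higher in stromal cells fell to 5 without replicate 2 and to 7 without replicate 3. AKT1 (-0.79) was higher in stromal cells, MTOR (0.65) and its inhibitor DDIT4 (1.96) in epithelial cells, and AKT2 and PDPK1 were not called.

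The EGF family was the signalling group with the most one-sided counts. Of 16 tested members, 10 were higher in epithelial cells, all of them beyond 1 on the log2 scale, and 1, the ligand EREG, was higher in stromal cells (2 without replicate 1). The list had 68.8% called and 62.5% called beyond 1, where all genes gave 54.9% and 32.7%. EGFR (ENSBTAG00000011628), the receptor of most of these ligands, had 247, 182 and 174 CPM in epithelial and 55.8, 50.6 and 40.3 CPM in stromal cells, 3.81-fold higher (1.93, standard error 0.132, adjusted p = 0.0014). ERBB3 (ENSBTAG00000010444), a neuregulin receptor with little kinase activity of its own, had 257, 263 and 330.5 against 9.46, 0.263 and 1.44 CPM (6.74, standard error 0.965, adjusted p = 0.00533). The partner receptor gene ERBB2 was higher in epithelial cells as well (2.05). So were the ligand genes AREG (6.38), NRG1 (5.76), TGFA (5.12), BTC (4.73) and HBEGF (3.37). TGFA had 48.5, 68.1 and 50.2 CPM in epithelial and 2.57, 1.23 and 0.672 CPM in stromal cells, and HBEGF had 30.1, 64.4 and 45.5 against 4.46, 3.51 and 3.94 CPM. EREG itself had 11.1, 25.2 and 28.2 against 17.9, 41.7 and 47.9 CPM, with overlapping ranges and a lower epithelial level in 3 of 3 pairs (-0.84, standard error 0.116, adjusted p = 0.00492).

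The RAS and mitogen-activated kinase relay that carries such signals gave 22 of 57 members higher in epithelial cells and 13 in stromal cells, a share called of 61.4%, near the 54.9% of all genes. RASAL1, which switches RAS off, had 42.1, 76.4 and 52.9 CPM in epithelial and 1.21, 0.0877 and 0 CPM in stromal cells (6.79, standard error 0.765, adjusted p = 0.003). Its difference was 6.12 without replicate 2, and without replicate 1 a single stromal read was left, so no value is given. RASGRF2, which switches RAS on, had 1.11, 0.793 and 2.20 against 45.3, 86.03 and 61.96 CPM (-5.63, standard error 0.365, adjusted p = 0.00133). Phosphatases that act on the kinases fell on both sides. DUSP6 had 26.6, 51.9 and 70.3 against 72.3, 80.7 and 70.8 CPM (-0.80, adjusted p = 0.0493), and its call was lost without replicate 1 (adjusted p = 0.0982) or replicate 2 (adjusted p = 0.133). DUSP4 (6.01) and DUSP5 (4.08) were higher in epithelial cells. The RAS genes HRAS and NRAS were not called.

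Of 21 FGF ligands and receptors tested, 10 were higher in stromal cells and 6 in epithelial cells (76.2% called, where all genes gave 54.9%). Without any 1 replicate number the counts were 7 and 6. FGF2 had 39.4, 33.8 and 109 CPM in epithelial and 369.9, 584 and 776 CPM in stromal cells (-3.49, standard error 0.299, adjusted p = 0.00184). FGF7, a stromal ligand for the epithelial form of FGFR2, had 1.78, 2.49 and 13.5 against 49.9, 65.1 and 19.4 CPM (-3.23, standard error 0.983, adjusted p = 0.0454), and its call was lost without replicate 1 (adjusted p = 0.148) or replicate 2 (adjusted p = 0.141). FGF9, in contrast, had 15.6, 27.6 and 40.3 against 0.908, 0.439 and 2.02 CPM and was higher in epithelial cells (4.53, adjusted p = 0.00161). Among the receptors, FGFR1 had 16.3, 15.4 and 46.4 against 168, 148 and 133 CPM (-2.81, standard error 0.405, adjusted p = 0.00539). FGFR2 had 57.5, 53.02 and 20.5 against 41.2, 32.9 and 44.3 CPM, with overlapping ranges (-0.057, adjusted p = 0.917). Epithelial replicate 3 held the lowest FGFR2 and the highest FGF2, FGF7 and FGFR1 values of the epithelial libraries. This library also held the highest median share of stromal markers (12.7%) but the lowest of their summed levels (24868 CPM). A link between these was not tested.

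The PDGF, VEGF, HGF and related families had 19 of 34 tested members higher in stromal cells, all of them beyond 1, and 8 higher in epithelial cells. In both directions 79.4% were called and 76.5% beyond 1, where all genes gave 54.9% and 32.7%. PDGFB (ENSBTAG00000021697), a ligand that attracts mesenchymal cells, had 213, 146 and 133 CPM in epithelial and 4.46, 0 and 0.384 CPM in stromal cells (6.98, standard error 0.833, adjusted p = 0.00342). Both PDGF receptor genes lay on the other side. PDGFRA (ENSBTAG00000007173) had 21.9, 15.1 and 89.9 against 691, 603 and 850.01 CPM (-4.62, standard error 0.482, adjusted p = 0.00256), and PDGFRB had 18.4, 7.93 and 58.4 against 433, 602 and 565 CPM (-4.74, adjusted p = 0.00489). VEGFA, the main growth factor of blood vessels, had 639.7, 508 and 592 against 168, 114 and 151 CPM and was 3.76-fold higher in epithelial cells (1.91, standard error 0.121, adjusted p = 0.00131). MET, the receptor of hepatocyte growth factor, had 743, 849 and 612 against 123, 47.6 and 31.99 CPM (3.57, standard error 0.369, adjusted p = 0.00253). Its ligand gene HGF was higher in stromal cells (-2.56). NTRK2, a neurotrophin receptor, had 0.891, 0.567 and 1.99 against 69.2, 122 and 118 CPM (-6.60, adjusted p = 0.00124), and its ligand gene BDNF was also higher in stromal cells (-5.33).

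Receptor kinases that sense collagen divided by isoform. DDR1 had 257, 238 and 262 CPM in epithelial and 66.6, 47.3 and 46.9 CPM in stromal cells (2.15, standard error 0.119, adjusted p = 0.00125), and DDR2 had 16.9, 6.91 and 37.99 against 191, 207 and 196 CPM (-3.63, standard error 0.524, adjusted p = 0.0054). Of the 22 collagen receptors, ephrin receptors, related kinases and ephrins tested, 7 were higher in epithelial cells and 10 in stromal cells (77.3% called, where all genes gave 54.9%). The ephrin receptor gene EPHB2 had 51.7, 24.8 and 41.9 against 1.06, 0.0877 and 0.672 CPM (5.96, adjusted p = 0.00124). EPHA5 had 0, 1 and 0 reads in epithelial and 466, 437 and 208 in stromal libraries (adjusted p = 0.00124), and no fold is given against 1 read.

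In the TGF-beta superfamily, 30 of 54 tested members were higher in stromal cells and 8 in epithelial cells, with a median of -0.58. The share called was 70.4%, where all genes gave 54.9%. BMP7, a bone morphogenetic protein, had 49.01, 35.7 and 26.6 CPM in epithelial and 4.01, 0.0877 and 0.865 CPM in stromal cells (4.65, standard error 0.644, adjusted p = 0.00492). INHBA, the activin A subunit, had 119, 82.8 and 74.5 against 298, 755 and 547 CPM (-2.59, adjusted p = 0.0101), a call that was lost without replicate 3 (adjusted p = 0.0559). GREM1, which traps bone morphogenetic proteins, had 5.79, 0.453 and 5.04 against 154, 329.8 and 206 CPM (-6.06, standard error 0.901, adjusted p = 0.00589). Other secreted inhibitors were higher in stromal cells too, among them NOG (-7.03) and CHRDL1 (-6.05), whereas the activin inhibitor FST was higher in epithelial cells (2.10). The intracellular SMAD2, SMAD3, SMAD6 and SMAD7 were not called.

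WNT ligands, receptors and inhibitors had the largest share called of the lists, 37 of 42 (88.1%, where all genes gave 54.9%). Of these, 27 were higher in stromal cells and 10 in epithelial cells. WNT7A (ENSBTAG00000001668), an epithelial ligand of the uterus, had 54.8, 59.7 and 57.7 CPM in epithelial and 2.95, 0 and 0.192 CPM in stromal cells (5.84, standard error 0.857, adjusted p = 0.00567). WNT3A had 67.1, 90.1 and 74.7 against 2.19, 0 and 0.480 CPM (6.35, standard error 0.758, adjusted p = 0.00343), and WNT7B was also higher in epithelial cells (5.90). Other ligands lay on the stromal side. WNT5A had 37.5, 14.2 and 46.3 against 192, 224 and 236 CPM (-2.97, standard error 0.407, adjusted p = 0.00481). WNT2 had 0.111, 0.340 and 0.735 against 117, 103 and 93.1 CPM (-8.09, standard error 0.369, adjusted p = 0.00124). The secreted inhibitor genes SFRP2 (-7.15) and DKK1 (-7.65) were higher in stromal cells.

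Hedgehog ligands and the transducers of their signal lay on opposite sides. The hedgehog ligand IHH, a progesterone-dependent epithelial signal to the uterine stroma, had 14.8, 14.5 and 10.9 CPM in epithelial and 1.89, 0.0877 and 0.288 CPM in stromal cells (4.21, standard error 0.654, adjusted p = 0.00661), and SHH was higher in epithelial cells as well. The transducer SMO had 3.79, 1.59 and 9.55 against 107, 145 and 93.95 CPM (-4.77, adjusted p = 0.00419), and GLI1, GLI2 and GLI3, the transcription factors of the pathway, were all higher in stromal cells. The receptor gene PTCH1 was not called (0.34, adjusted p = 0.127). The Notch ligand JAG1 had 99.9, 105 and 104 against 338, 424 and 576 CPM (-2.19, standard error 0.214, adjusted p = 0.00231), while JAG2 and DLL4 were higher in epithelial cells. Of the basic helix-loop-helix repressors of this group, HES2 had 67.7, 48.5 and 69.2 against 20.7, 15.6 and 17.4 CPM (1.67, adjusted p = 0.00139) and HEYL had 0.668, 0.113 and 0.630 against 16.1, 16.8 and 29.7 CPM (-5.55, adjusted p = 0.00145). In all, 10 of 31 members were higher in epithelial cells and 14 in stromal cells (77.4% called, where all genes gave 54.9%).

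Cytokine and chemokine genes were shared out, with 21 of 63 higher in epithelial cells and 26 in stromal cells and a median of -0.09. In both directions 74.6% were called, where all genes gave 54.9%. LIF, an interleukin-6 family cytokine needed for implantation in mice, had 58.5, 57.2 and 61.6 CPM in epithelial and 8.25, 7.72 and 14.3 CPM in stromal cells (2.49, standard error 0.228, adjusted p = 0.00204). Its receptor gene LIFR was higher in stromal cells (-2.43). IL6 had 5.12, 32.6 and 15.5 against 2.19, 2.89 and 0.961 CPM (2.79, adjusted p = 0.0122), and its call was lost without replicate 2 (adjusted p = 0.0616) or replicate 3 (adjusted p = 0.0535). TNFSF15, a tumour necrosis factor family ligand, had 40.7, 77.4 and 43.1 against 2.65, 0.175 and 0.384 CPM (5.55, adjusted p = 0.00475). CXCL5, which attracts neutrophils, had 3.01, 1.47 and 9.13 against 201, 249 and 345 CPM (-6.20, standard error 0.454, adjusted p = 0.00146), and CXCL8 was higher in stromal cells too (-4.13).

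**Figure D2:**
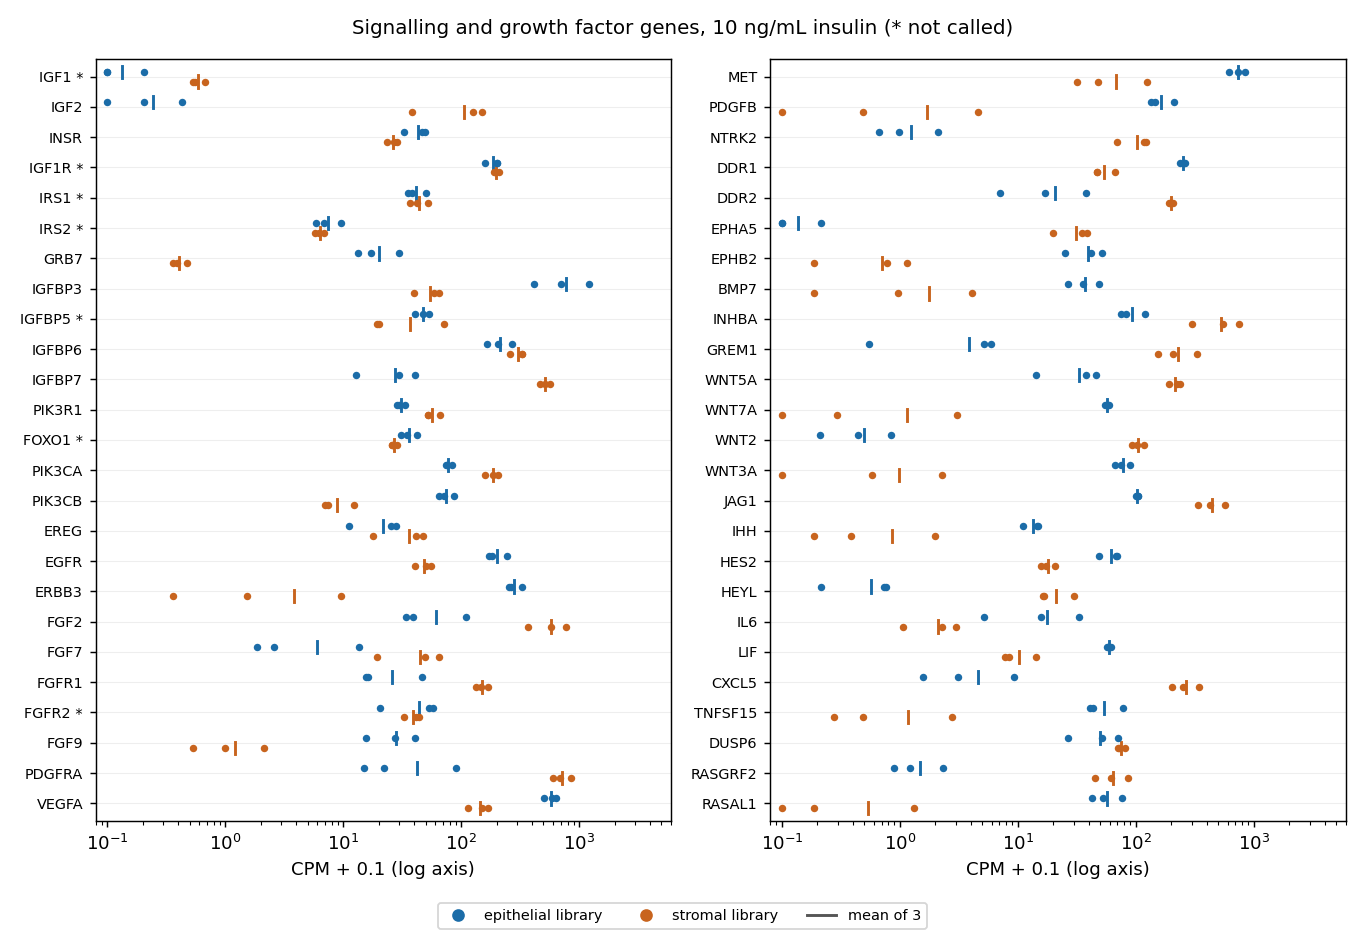
CPM + 0.1 on a log axis for the named signalling and growth factor genes in the 3 epithelial (blue) and 3 stromal (orange) libraries at 10 ng/mL insulin, with group means as bars and an asterisk for genes not called. PDGFB (133 to 213 CPM in epithelial cells) and PDGFRA (603 to 850 CPM in stromal cells) lie on opposite sides, and both cell types lie close together for INSR, IGF1R, IRS1 and IRS2.

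Sugar transporters separated the cell types by isoform. SLC2A1 (ENSBTAG00000009617), the basal glucose transporter, had 781, 739 and 713 CPM in epithelial and 48.3, 14.2 and 25.2 CPM in stromal cells, 26.5-fold higher in epithelial cells (4.73, standard error 0.360, adjusted p = 0.00156). SLC2A3 (ENSBTAG00000004556), a high-affinity glucose transporter, had 1373, 609.8 and 372 against 673, 884 and 928 CPM, with ranges that overlapped (-0.40, standard error 0.533, adjusted p = 0.556). Epithelial replicate 1 held the highest SLC2A3 level and epithelial replicate 3 the lowest, and the gene was called at -1.10 without replicate 1 (adjusted p = 0.0468). SLC2A5, the fructose transporter, had 28.3, 73.9 and 41.9 against 0.984, 0 and 0 CPM (6.82, standard error 0.879, adjusted p = 0.00413). Its symbol is shared by 2 gene identifiers, of which the one with more reads was taken. SLC2A10 was the reverse, with 3.23, 3.63 and 6.30 against 41.5, 44.6 and 45.7 CPM (-3.47, standard error 0.192, adjusted p = 0.00125). The lactate transporters SLC16A1 (1.497) and SLC16A3 (3.03) were higher in epithelial cells. Of 18 transporters and regulators tested, 8 were higher in epithelial cells and 4 in stromal cells (66.7% called, where all genes gave 54.9%). The 4 were SLC2A10, SLC2A13, SLC16A7 and ARRDC4. The insulin-responsive transporter SLC2A4 fell below the count filter.

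Glycolysis leaned to the epithelium, with 23 of 46 enzymes higher in epithelial cells and 4 in stromal cells and a median of 0.44. The share called in both directions, 58.7%, was near the 54.9% of all genes. HK2, the hexokinase that traps glucose inside the cell, had 262, 158 and 111 CPM in epithelial and 36.2, 26.5 and 22.96 CPM in stromal cells (2.47, standard error 0.186, adjusted p = 0.00153). HKDC1, a further hexokinase, had 75.9, 91.1 and 80.4 against 4.16, 0.0877 and 0.288 CPM (5.91, standard error 0.863, adjusted p = 0.0056). LDHA (ENSBTAG00000008683), the lactate dehydrogenase subunit that favours lactate, had 705, 764 and 634 against 220.1, 139.8 and 122 CPM and was 4.17-fold higher (2.06, standard error 0.170, adjusted p = 0.00174). The partner subunit gene LDHB had 193, 193 and 201 against 217, 182 and 165 CPM and did not pass the test (-0.043, standard error 0.109, adjusted p = 0.762). Along the pathway, PFKL (2.26), GAPDH (1.66), TPI1 (1.19), ALDOA (1.14), ENO1 (0.91) and PGK1 (0.86) were higher in epithelial cells, and PKM and PGAM1 were not called. GAPDH had 3189.5, 2926 and 2503 against 1016, 761 and 759.6 CPM. PDK1, which closes the entry of pyruvate into mitochondria, was higher in epithelial cells too (2.52). The 4 enzymes higher in stromal cells were ENO2, ME3, G6PC3 and PFKM. ENO2, the neuronal enolase, had 5.57, 6.68 and 8.08 against 19.8, 20.96 and 19.4 CPM (-1.68, adjusted p = 0.00207).

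Glycogen genes lay on both sides, with the synthase gene GYS1 and the phosphorylase genes PYGL and PYGB higher in epithelial cells. GYS1 (ENSBTAG00000039958), the glycogen synthase that insulin signalling activates, had 102, 106 and 105 CPM in epithelial and 20.1, 15.9 and 11.6 CPM in stromal cells, 6.22-fold higher (2.64, standard error 0.157, adjusted p = 0.00128). PYGL, a glycogen phosphorylase, had 414, 407 and 399 against 239, 211 and 139.97 CPM (0.98, standard error 0.154, adjusted p = 0.00689), and the branching enzyme gene GBE1 was higher in epithelial cells too (0.92). GYG2, a primer of glycogen synthesis, and PHKG1, a subunit of the kinase that activates phosphorylase, were higher in stromal cells (-1.22 and -1.498). GFPT2, an entry enzyme of hexosamine synthesis, had 1.89, 0.906 and 5.88 against 86.7, 50.2 and 52.9 CPM (-4.66, standard error 0.538, adjusted p = 0.00317). Of the 46 glycogen, pentose phosphate, polyol and hexosamine enzymes, 17 were higher in epithelial cells (10 without replicate 2 or replicate 3) and 10 higher in stromal cells (6 without replicate 2). The share called, 58.7%, was near that of all genes. Citric acid cycle enzymes gave 9 and 3 of 25, a share called of 48.0%, below that of all genes. The 3 were GOT1, SUCLA2 and IDH3A, and in place of these 3 calls there were 1, 0 and 1 without replicates 1, 2 and 3. IDH2, a mitochondrial isocitrate dehydrogenase, had 69.3, 55.97 and 64.4 against 24.8, 19.9 and 23.2 CPM (1.38, standard error 0.102, adjusted p = 0.0015), and the cytosolic IDH1 was not called (0.48, adjusted p = 0.0752). GOT1, a transaminase of the malate shuttle, had 27.6, 40.7 and 44.4 against 60.8, 56.7 and 51.1 CPM (-0.71, adjusted p = 0.0215), a call that was lost without replicate 2 (adjusted p = 0.0661).

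The named genes of fatty acid synthesis were higher in epithelial cells. FASN (ENSBTAG00000015980), the fatty acid synthase, had 906, 1204 and 1126 CPM in epithelial and 224, 203 and 198 CPM in stromal cells, 4.78-fold higher (2.26, standard error 0.142, adjusted p = 0.00131). SCD (ENSBTAG00000055207), the delta-9 desaturase, had 1128, 1801 and 1509 against 126, 59.2 and 101 CPM (3.88, standard error 0.373, adjusted p = 0.00223). ACSS2, which makes acetyl-CoA from acetate, had 66.8, 126 and 88.3 against 5.07, 1.05 and 3.07 CPM (4.83, standard error 0.580, adjusted p = 0.00347). The desaturase genes FADS1 (1.99) and FADS2 (3.80) and the regulator SREBF1 (1.70) were higher in epithelial cells as well. Genes for the entry of fatty acids into mitochondria lay on both sides. CPT1A, the carnitine palmitoyltransferase of the outer membrane, had 20.3, 17.6 and 23.6 against 96.6, 104 and 97.03 CPM (-2.39, standard error 0.143, adjusted p = 0.00128). SLC25A20, the carnitine carrier of the inner membrane, had 1.67, 2.61 and 2.20 against 23.1, 22.6 and 21.04 CPM (-3.47, standard error 0.184, adjusted p = 0.00124). The isoform gene CPT1B was higher in epithelial cells (2.87). Of 78 genes tested, 32 were higher in epithelial cells and 20 in stromal cells (66.7% called, where all genes gave 54.9%).

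Cholesterol synthesis, uptake and efflux gave 23 of 39 genes higher in epithelial cells and 5 in stromal cells, with a median of 0.90. The share called was 71.8%, where all genes gave 54.9%. The synthesis genes HMGCS1 (1.98), IDI1 (2.52) and SQLE (1.67) were higher in epithelial cells. HMGCS1 had 251, 356 and 347 CPM in epithelial and 69.5, 78.2 and 73.9 CPM in stromal cells. The efflux transporters ABCA1 and ABCG1 were higher in epithelial cells. ABCA1 had 245, 280.4 and 345 against 39.1, 4.03 and 9.13 CPM (4.51, standard error 0.755, adjusted p = 0.00805), and ABCG1 had 56.7, 64.8 and 58.7 against 1.21, 0 and 0.0961 CPM (6.94, standard error 0.692, adjusted p = 0.00239). NR1H3, the sterol-sensing nuclear receptor that switches these transporters on, was higher in stromal cells, with 3.23, 3.63 and 4.41 against 20.7, 22.3 and 18.8 CPM (-2.56, standard error 0.176, adjusted p = 0.0014). The other 4 genes higher in stromal cells were MYLIP, APOE, LCAT and INSIG2.

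The creatine genes GATM, CKMT1A and CKB were higher in epithelial cells. GATM (ENSBTAG00000005586), the first enzyme of creatine synthesis, had 87.4, 138 and 158 CPM in epithelial and 12.4, 0.351 and 1.83 CPM in stromal cells (5.16, standard error 1.06, adjusted p = 0.0147), a call that was lost without replicate 3 (adjusted p = 0.0719). The mitochondrial creatine kinase gene CKMT1A (ENSBTAG00000007502) had 187, 225 and 211 against 10.97, 0 and 0.961 CPM (6.39, standard error 1.20, adjusted p = 0.0114), and it was lost in the same way (adjusted p = 0.0615). CKB, the cytosolic creatine kinase, had 41.1, 18.5 and 42.9 against 14.5, 7.10 and 5.09 CPM (1.85, standard error 0.351, adjusted p = 0.0116). CDO1, which turns cysteine toward taurine, was higher in stromal cells with 0.334, 0.340 and 1.05 against 33.3, 22.5 and 25.1 CPM (-5.62, adjusted p = 0.00133). The 68 amino acid, creatine, polyamine and one-carbon enzymes gave 20 higher in epithelial cells and 14 in stromal cells (9 without replicate 1 and 7 without replicate 2), with a median near 0 and a share called of 50.0%, below that of all genes.

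Amino acid transporters leaned to the stroma in number, with 18 of 32 higher in stromal cells and 9 in epithelial cells (84.4% called, where all genes gave 54.9%). SLC7A8, an exchanger of neutral amino acids, had 65.9, 84.4 and 86.5 CPM in epithelial and 2.88, 0 and 0.576 CPM in stromal cells (6.07, standard error 0.811, adjusted p = 0.00449). SLC7A5, which exchanges large neutral amino acids such as leucine, had 47.3, 36.1 and 48.3 against 65.2, 63.7 and 67.3 CPM (-0.69, adjusted p = 0.0119), and the call was lost without replicate 2 (adjusted p = 0.0522) or replicate 3 (adjusted p = 0.0583). SLC38A5, a glutamine transporter, had 3.23, 1.81 and 4.72 against 53.4, 73.5 and 67.5 CPM (-4.44, standard error 0.326, adjusted p = 0.00146). SLC6A14, a broad amino acid importer, had 4.01, 3.63 and 3.67 against 0.303, 0.351 and 0.768 CPM (2.91, adjusted p = 0.00631), and the taurine transporter SLC6A6 was higher in stromal cells (-2.96).

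Retinoid genes lay on both sides. ALDH1A3 (ENSBTAG00000009125), which makes retinoic acid, had 1360.1, 2129 and 3031 CPM in epithelial and 247, 207 and 174 CPM in stromal cells (3.21, standard error 0.327, adjusted p = 0.00248). STRA6, a membrane receptor that takes up retinol, had 36.8, 13.4 and 42.4 against 583, 738 and 584 CPM (-4.59, standard error 0.504, adjusted p = 0.00286). The related synthesis enzyme ALDH1A1 was higher in stromal cells (-1.47). PTGS2, the inducible prostaglandin synthase, had 82.8, 183 and 120.2 against 48.9, 227 and 108 CPM with overlapping ranges (0.09, standard error 0.257, adjusted p = 0.788). Its constitutive relative PTGS1 was higher in epithelial cells, with 38.4, 86.4 and 80.4 against 1.97, 0.789 and 0.961 CPM (5.55, adjusted p = 0.00185). SLCO2A1, a prostaglandin transporter, had 25.8, 27.98 and 19.9 against 0.832, 0.351 and 0 CPM (5.82, adjusted p = 0.00196), and CYP1B1, which oxidises estrogens, had 1.89, 2.27 and 4.93 against 67.6, 153 and 79.8 CPM (-5.12, adjusted p = 0.00173). Of 41 retinoid, steroid and prostaglandin genes tested, 15 were higher in epithelial cells and 11 in stromal cells (63.4% called, where all genes gave 54.9%).

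**Figure D3:**
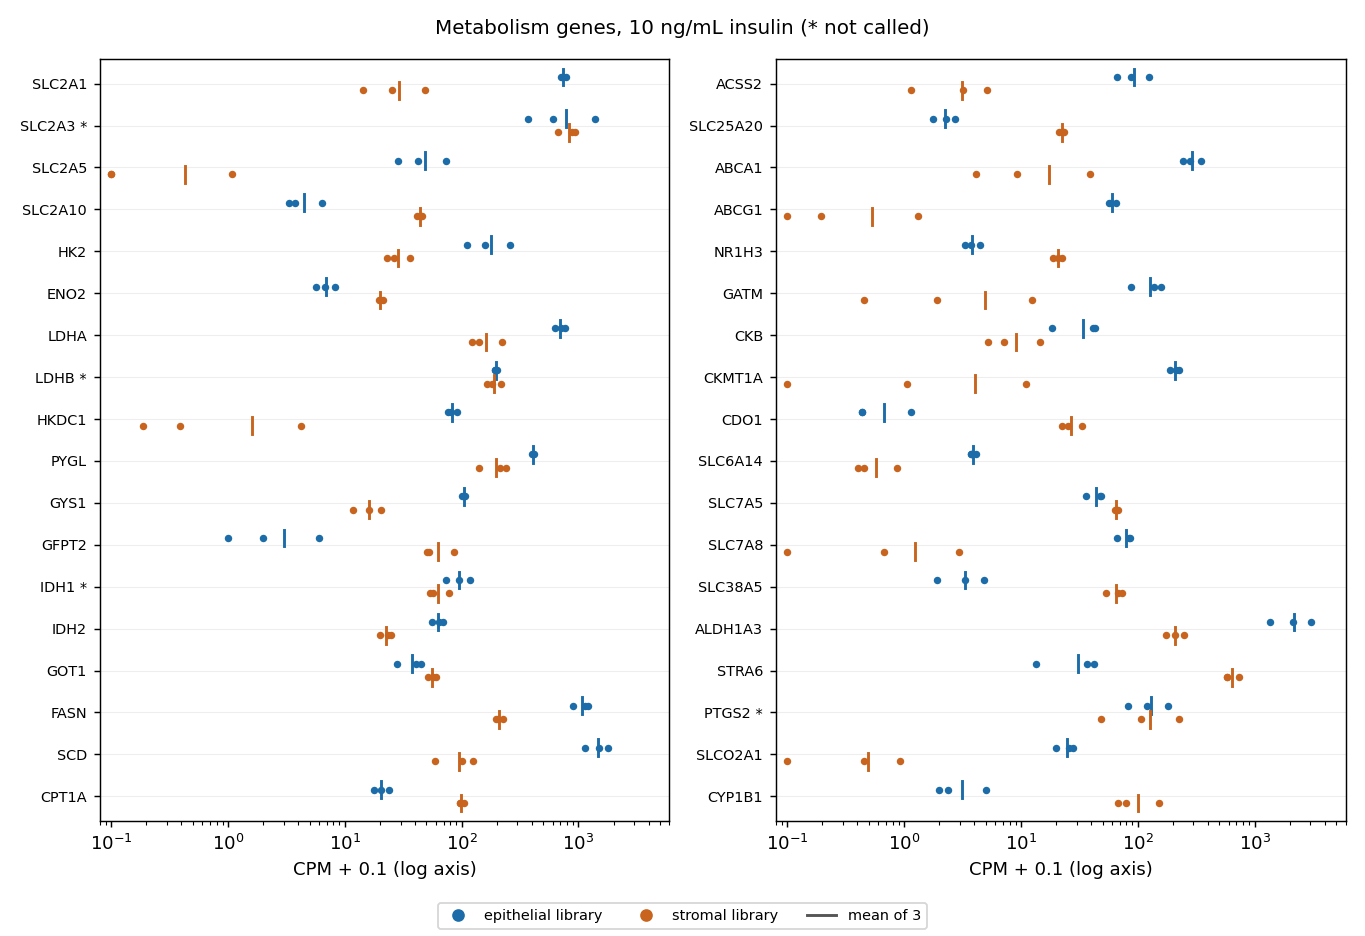
CPM + 0.1 on a log axis for the named metabolism genes in the 3 epithelial (blue) and 3 stromal (orange) libraries at 10 ng/mL insulin, with group means as bars and an asterisk for genes not called. SLC2A1, LDHA, GYS1, FASN and SCD lie higher in every epithelial library, while SLC2A3 and LDHB overlap.

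The libraries of the low group differed by gene, and the order often followed the marker genes. Of 34 named genes that were called higher in epithelial cells by more than 2 on the log2 scale, stromal replicate 1 held the highest of the 3 stromal values for 30, and 9 had 0 reads in at least 1 stromal library. ERBB3 stood at 3.34, 0.0928 and 0.508% of the epithelial mean in stromal replicates 1, 2 and 3, HKDC1 at 5.05, 0.106 and 0.350%, and CKMT1A at 5.28, 0 and 0.463%, where KRT19 stood at 3.93, 0.00919 and 0.357%. Other genes kept a steadier level in stromal cells. FASN stood at 20.7, 18.8 and 18.4% of the epithelial mean, EGFR at 27.7, 25.2 and 20.01%, GYS1 at 19.3, 15.2 and 11.2% and DDR1 at 26.4, 18.7 and 18.6%. Each lay above the median level of the epithelial markers in each stromal library, which was 3.73%, 0% and 0.429%. Of the 32 epithelial markers, 1 was not called between the cell types. On the other side, epithelial replicate 3 held the highest epithelial value for 19 of the 26 named genes called higher in stromal cells by more than 2. PDGFRA stood at 3.07, 2.11 and 12.6% and DDR2 at 8.55, 3.49 and 19.2% of the stromal mean in epithelial replicates 1, 2 and 3, where SPARC stood at 2.18, 1.23 and 5.41%. JAG1 stood at 22.4, 23.6 and 23.3% and VIM at 15.2, 15.6 and 14.3%.

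Many folds moved when a replicate number was left out. Without replicate 1, 18 of the 41 named genes higher in epithelial cells had a fold more than 1.5 times larger, and without replicate 2, 16 had a fold more than 1.5 times smaller, these 16 being also among the 18. Among signalling genes the log2 difference without replicate 1 and without replicate 2 was 8.34 and 5.92 for ERBB3, 9.31 and 6.32 for PDGFB, 8.24 and 5.64 for WNT3A, 5.86 and 4.01 for BMP7, 5.85 and 3.61 for IHH and 7.54 and 4.77 for TNFSF15. Among metabolism genes it was 8.61 and 5.20 for HKDC1, 5.54 and 4.15 for ACSS2, 5.48 and 3.80 for ABCA1, 6.99 and 4.22 for GATM, 8.70 and 5.37 for CKMT1A and 8.05 and 5.38 for SLC7A8. Several of the values without replicate 1 rest on few stromal reads. Replicates 2 and 3 held 0 and 4 reads for PDGFB, 0 and 5 for WNT3A and 2 and 4 for TNFSF15. They held 0 and 6 for SLC7A8, and 1 and 3 for both IHH and HKDC1. Without replicate 1, stromal cells held 1 read in all for RASAL1 and ABCG1, 2 for WNT7A and 0 for SLC2A5, so no value is given for these. Without replicate 2 the 4 genes had 6.12, 6.33, 5.17 and 5.92. IL6 (3.52) and SLCO2A1 (6.83, on 4 and 0 stromal reads) moved without replicate 1 alone. By contrast, EGFR ran from 1.81 to 2.04, LDHA from 1.93 to 2.24, GYS1 from 2.47 to 2.78 and FASN from 2.17 to 2.37. Of the 34 named genes higher in stromal cells, 4 moved by more than 1.5 times without replicate 1, 5 without replicate 2 and 8 without replicate 3. Without replicate 1, IGF2 moved as well, but its epithelial libraries held 0 and 1 reads, so no value is given. The log2 difference was then -2.49 for FGF7, -3.20 for INHBA and -6.86 for GREM1. Without replicate 2 it was -2.42 for FGF7, -3.01 for DDR2, -5.13 for GREM1 and -3.98 for STRA6, and EPHA5 moved as well. Without replicate 3 it was -8.90 for IGF2, -4.82 for FGF7, -5.21 for PDGFRA, -4.23 for DDR2, -8.92 for WNT2, -5.67 for GFPT2, -6.37 for CDO1 and -5.71 for CYP1B1. The epithelial reads left in replicates 1 and 2 were 3 and 0 for IGF2, 1 and 3 for WNT2 and 3 and 3 for CDO1.

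**Figure D4:**
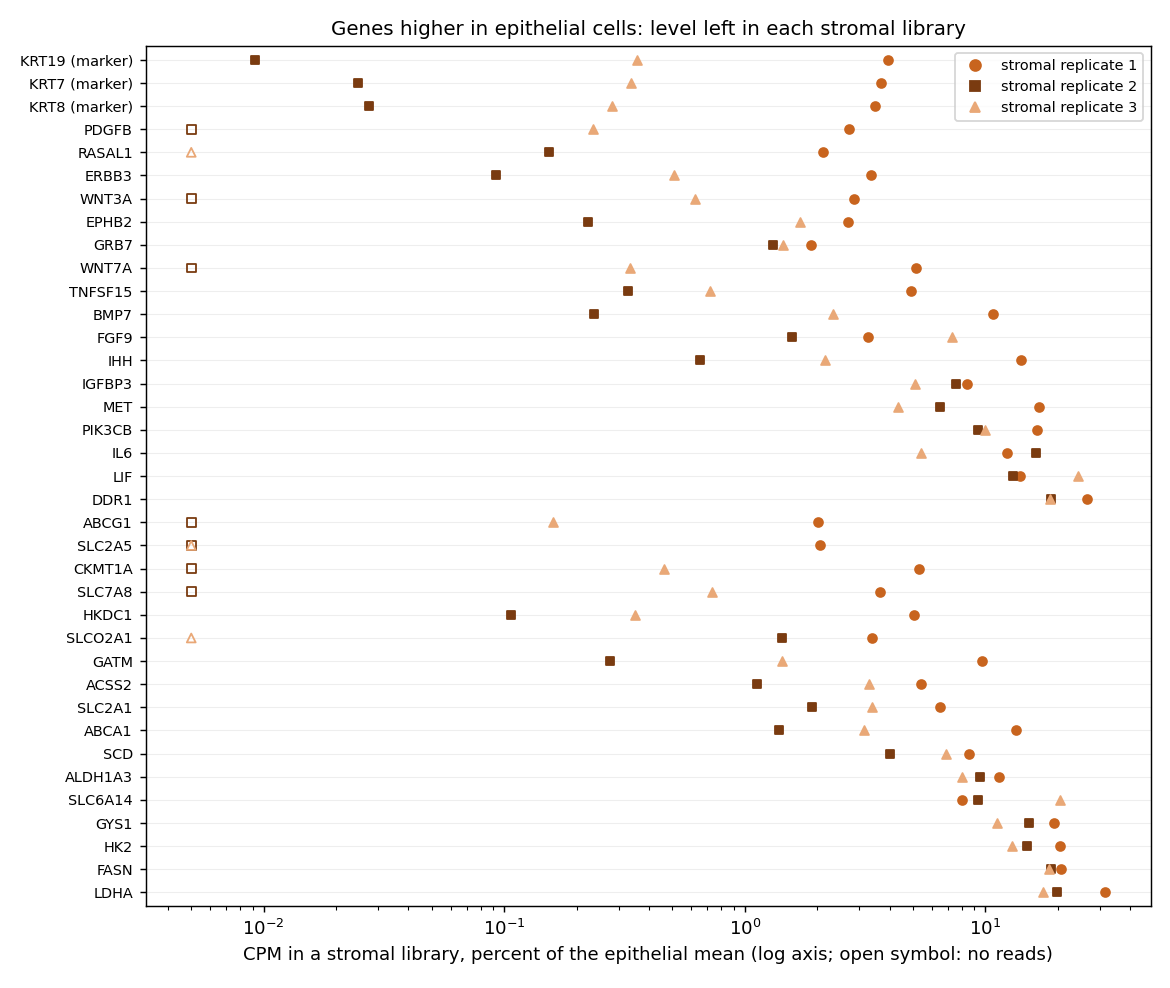
CPM in each stromal library at 10 ng/mL insulin as a percent of the epithelial mean (log axis) for the 3 keratin markers and the 34 named genes called higher in epithelial cells by more than 2 on the log2 scale, with open symbols for 0 reads. Genes such as ERBB3, HKDC1 and CKMT1A are highest in stromal replicate 1 and lowest in replicate 2, as is KRT19 (3.93%, 0.00919% and 0.357%). GRB7 is steadier (1.89%, 1.31% and 1.44%), and the lowest rows, FASN and LDHA, lie at 17.46% or more in all 3.

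The cell type difference was then set beside that of the other insulin groups. The same fit called 7200 of 12876 protein-coding genes (55.9%) in the vehicle group and 7632 of 12839 (59.4%) at 1 ng/mL. Several named genes had close values in all 3 groups. LDHA had 2.02 with the vehicle, 2.05 at 1 ng/mL and 2.06 at 10 ng/mL, GYS1 had 2.64, 2.84 and 2.64, and EGFR had 1.92, 2.06 and 1.93. INSR had 0.60, 0.75 and 0.58, and PIK3CB had 3.21, 3.24 and 2.997. Genes near 0 in stromal cells cannot be compared in this way. ABCG1 had 6.49 with the vehicle and 6.94 at 10 ng/mL, but 0 CPM in all 3 stromal libraries at 1 ng/mL, so no difference is given there. WNT7A had 6.40 and 5.84, with a stromal mean of 0.0283 CPM at 1 ng/mL, under the limit that a count of 0 allows.

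A test of the difference itself, on 13545 genes in all 18 insulin libraries, called 0 genes (0%) for 10 ng/mL against the vehicle and 0 (0%) for 10 ng/mL against 1 ng/mL (edgeR's quasi-likelihood test). The smallest adjusted p-values were 0.724 and 0.417. At an unadjusted p under 0.05, 550 genes (4.06%) and 821 genes (6.06%) passed, and among 852 list members 43 (5.05%) and 72 (8.45%). DESeq2 called 0 and 10 genes. Both counts depended on replicate 2, without which 154 and 144 protein-coding genes were called, and against the vehicle 24 were called without replicate 1. Of the 154 genes, 154 had a lower log2 difference of epithelial over stromal cells at 10 ng/mL than with the vehicle. At 10 ng/mL, 150 were called higher in epithelial cells and 2 higher in stromal cells. Among the 154 genes, 24 were among the 32 epithelial markers, and 19 were list members, such as ERBB3, HKDC1, ABCG1 and GATM. Over the epithelial markers, the stromal libraries of replicates 1, 2 and 3 held a median of 0.0937%, 3.89% and 0.0615% of the epithelial level with the vehicle, 0.0887%, 0.0235% and 0.104% at 1 ng/mL, and 3.73%, 0% and 0.429% at 10 ng/mL. The part of this uneven spread in the calls was not tested.

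**Figure D5:**
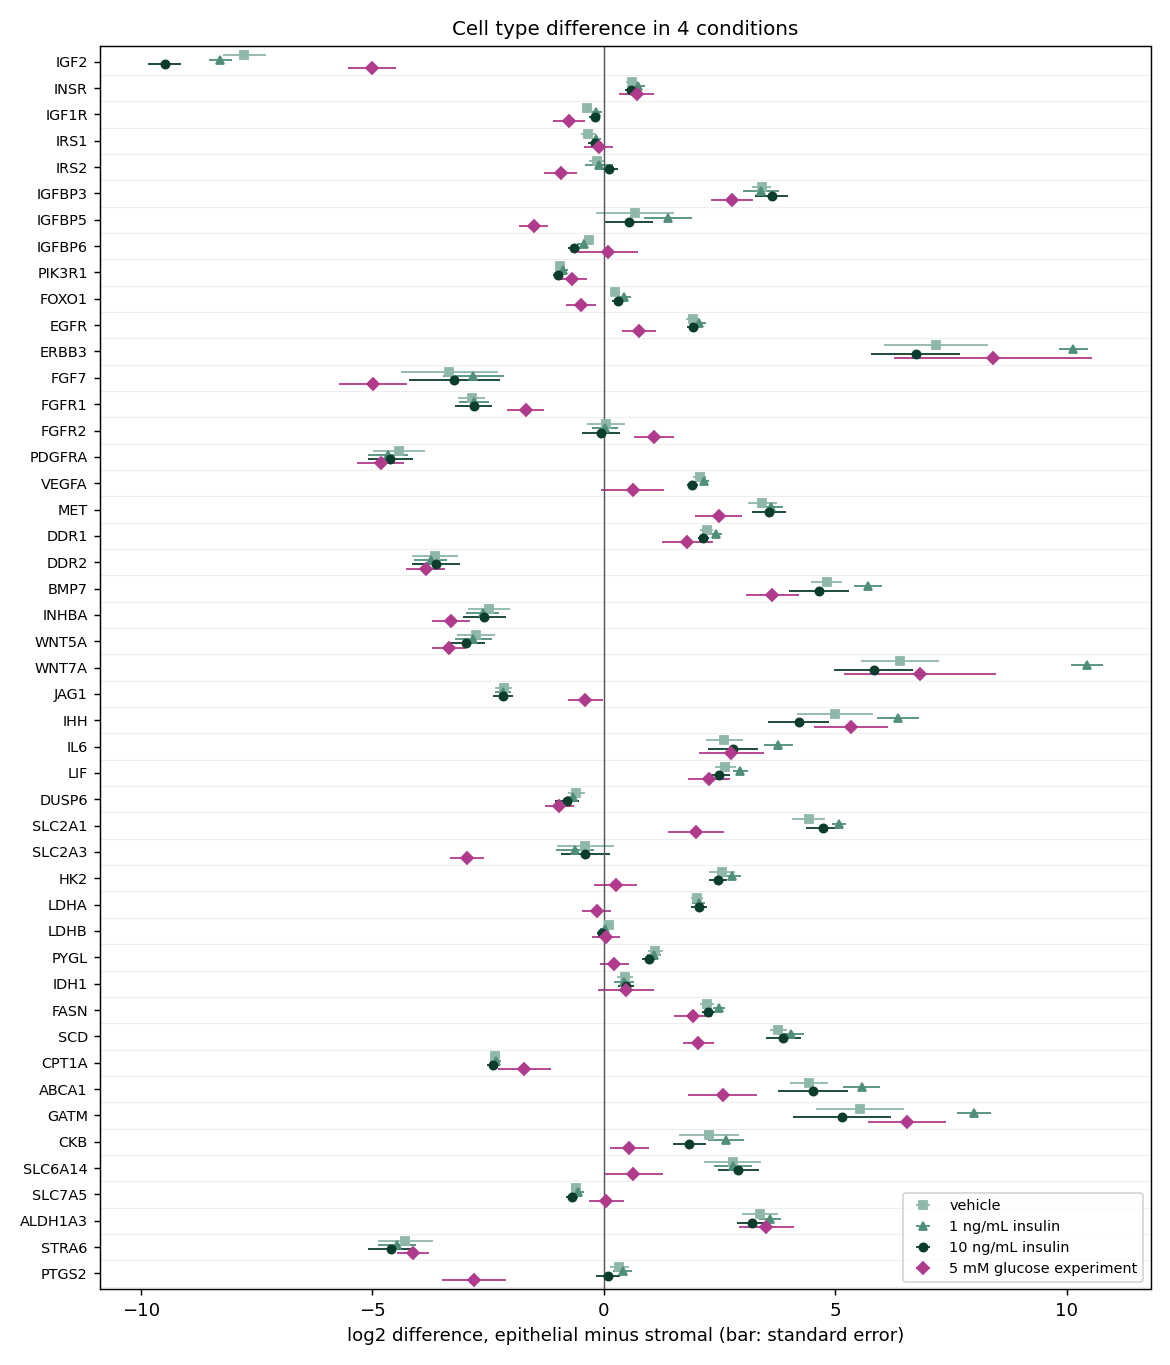
Log2 difference between epithelial and stromal cells (horizontal axis, bars are standard errors) with the vehicle, 1 ng/mL and 10 ng/mL of insulin and in the glucose experiment at 5 mM, for 47 of the 49 core genes tested, each point from 3 libraries of each cell type. The value of WNT7A at 1 ng/mL rests on a stromal mean of 0.0283 CPM, and the 3 insulin groups lie close together for genes such as LDHA (2.02, 2.05 and 2.06), and the glucose experiment lies apart for LDHA (-0.15) and SLC2A3 (-2.95).

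The glucose experiment holds other libraries of both cell types in medium with 5 mM glucose, so its cell type difference shares no library with the one above. There, 2856 of 13286 protein-coding genes (21.5%) were called. Of the list members, 542 were called at 10 ng/mL insulin and 270 in the glucose experiment, and 250 in both with the same direction, which is 46.1% of the first and 92.6% of the second. Over all protein-coding genes, 2518 were called in both with the same direction, 35.8% of the 7030 and 88.2% of the 2856. No list member was called in opposite directions, beside 250 in the same direction. Over all protein-coding genes 4 were, beside 2518 in the same direction, so opposite calls were rare in either set. EGFR had 0.76 (adjusted p = 0.222), DDR1 1.80 (adjusted p = 0.0714) and EREG -1.15 (adjusted p = 0.203), and these did not pass the test there. Named genes called on the same side in both included ERBB3 with 8.40 (adjusted p = 0.0403), WNT7A with 6.83 (adjusted p = 0.0335), PDGFRA with -4.82 (adjusted p = 0.00543) and DDR2 with -3.85 (adjusted p = 0.00543). Stromal levels there were 19.0, 0.0629 and 0.183 CPM for ERBB3 and 7.49, 0 and 0.0610 CPM for WNT7A. The size of these 2 folds therefore rests on stromal libraries near 0. FASN (1.92, adjusted p = 0.0231) and SCD (2.05, adjusted p = 0.0119) were higher in epithelial cells there too.

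Several carbohydrate genes had smaller values in the glucose experiment. LDHA had 316, 217 and 493 CPM in epithelial and 274, 229 and 474 CPM in stromal cells there, a log2 difference of -0.15 (adjusted p = 0.775) against 2.06 at 10 ng/mL insulin. GYS1 had 0.47 (adjusted p = 0.376) against 2.64, and HK2 had 0.26 (adjusted p = 0.748) against 2.47. SLC2A1 had 621, 1016 and 488 CPM against 267, 78.7 and 139.8 CPM, a difference of 1.99 (adjusted p = 0.0684). SLC2A3 had 302, 85.1 and 588 CPM in epithelial and 2154, 677 and 3068 CPM in stromal cells and was called higher in stromal cells (-2.95, adjusted p = 0.00633), as was PTGS2 (-2.81, adjusted p = 0.0364). A test of the difference between the experiments, chosen after seeing the data, called 0 of 13691 genes (0%), with a smallest adjusted p of 0.219 (edgeR's quasi-likelihood test) and 1326 genes at an unadjusted p under 0.05. Leaving out each replicate number, or the replicate term, also gave 0 calls. The adjusted p was 0.427 for LDHA, 0.427 for GYS1, 0.427 for HK2, 0.441 for SLC2A1 and 0.427 for SLC2A3. With the vehicle, the insulin experiment gave 2.02 for LDHA, 2.64 for GYS1, 2.55 for HK2, 4.42 for SLC2A1 and -0.40 for SLC2A3. The gap to the glucose experiment was thus also present in libraries without added insulin. The vehicle group and the glucose experiment still differed in the vehicle and in their libraries, and these cannot be told apart.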

How the data were processed

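RNA of cells from both chambers was sequenced in 75 bp single reads from stranded libraries. Per the methods of the study, the authors used Cutadapt and fastq_quality_filter for trimming and Rsubread for alignment to the Ensembl release 96 cow genome, kept the unique alignments and deposited featureCounts counts per gene, without normalization. The strand setting of the counting is not given in the sources used here. Gene symbols and types came from the authors' comparison tables, whose fold changes and p-values were not used. For the 6 libraries at 10 ng/mL, counts were filtered with filterByExpr, scaled by TMM and fitted in edgeR 4.0.16 (R 4.3.3) with the replicate number as a term, as the study's paired design states. P-values were adjusted over all 13274 genes tested. Calls on protein-coding genes were counted over all genes, and calls on all tested members over lists. The members, lists and markers were chosen with earlier results of these data known. Named genes were the 49 core genes of the lists that were tested, IGF1, and, for each list, the called member with the largest difference on each side among those with a mean of at least 10 CPM. Alternatives were DESeq2 1.42.0, other scalings, filters and thresholds, all 18 insulin libraries, no replicate term, and leaving out each replicate number. The test between the experiments was chosen after seeing the data. The fits of the cell type and dose differences were tested on simulated data. Some members are not reported by name here. No libraries agreed within sampling noise. A count of 3 is 0.227 to 0.340 CPM. Such limits cover counting error only.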

Additional observations from a re-analysis of the deposited data

Results flagged for a closer look

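IRS2, the insulin receptor substrate gene, had a log2 difference of 0.12 at 10 ng/mL insulin, with the epithelial level above the stromal level in 3 of 3 pairs, and of -0.93 in the glucose experiment at 5 mM, with the stromal level above in 3 of 3 pairs. Neither value passed its own test (edgeR's quasi-likelihood test, adjusted p = 0.627 and 0.124). The levels at 10 ng/mL were 6.79, 5.78 and 9.55 CPM in epithelial and 6.13, 5.70 and 6.82 CPM in stromal cells, and in the glucose experiment 10.8, 6.89 and 12.7 CPM and 21.6, 11.8 and 16.7 CPM. The difference between the experiments was 1.11 (adjusted p = 0.464) and did not pass. It was the only one of the named genes to move in opposite directions in every pair.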

How the results depend on the processing

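The 7030 calls at 10 ng/mL became 6457 with DESeq2 and 9409 when all 18 insulin libraries shared the spread, and a test against a log2 difference of 1 called 2921 genes in place of 4181. Leaving out 1 replicate number gave 4815 to 5960 calls at 10 ng/mL and 2190 to 3268 in the glucose experiment. The difference between 10 ng/mL and the vehicle gave 0 to 154 calls over these fits, and that between 10 and 1 ng/mL gave 0 to 144, 10 with DESeq2 and 4 without the count filter. The cause was not tested beyond the markers given above. Other scalings kept 47.4% to 51.7% of calls on the epithelial side.

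Without the replicate block there were 7405 calls. The numbers were not shown to pair the libraries: the deviations of same-numbered libraries correlated by 0.0569, 0.108 and 0.180 and those of others by -0.172 to 0.0274, so each library correlated best with its own number, a hint from the data only. Without the block, EREG (adjusted p = 0.158) and DUSP6 (adjusted p = 0.091) lost their calls. Genes with no call at 10 ng/mL changed sign: FGFR2 to 0.051 and PTGS2 to -0.13 without the block, and, over the fits without 1 number, FGFR2 ran from -0.38 to 0.52, SLC2A3 from -1.10 to 0.18, LDHB from -0.11 to 0.010 and PTGS2 from -0.25 to 0.36. In the fit of all 18 libraries, genes such as IGF1R, FOXO1 and IDH1 passed the threshold. Of 93 named genes tested, 70 kept direction and call under every setting run.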
